A study of Mus musculus with 6 samples.

Results

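The genes described here encode the machinery that brings proteins into mitochondria, the proteins that fuse and divide mitochondria, and the factors that keep and read mitochondrial DNA. Members were taken by symbol: 18 genes whose symbol begins with Timm or Tomm and a digit, and 16 genes named one by one, which gave 34 of the 23930 genes of the table. Of these 34, 32 reached a log2 average of 1 or more with Meth or Saline; Timm8a2 and Tomm20l lay under 1 in both. Such proteins as TOM20 and TIM23 are central to import, but their genes were not analysed here.

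Almost all mitochondrial proteins are made in the cytosol as precursors. They cross the outer membrane through the TOM complex, and are then handed to small chaperones of the intermembrane space, to the TIM22 complex for carrier proteins, or to the TIM23 complex for proteins that carry a cleavable presequence. Mitofusins and OPA1 join mitochondria, while DRP1 and its receptors divide them. The balance shapes the mitochondrial network, which in microglia is known to become fragmented under inflammatory stimulation. The mitochondrial genome is packed, copied and transcribed by nuclear-encoded proteins that depend on the same import route.

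Microglia, the resident macrophages of the brain, were sorted by flow cytometry as CD11b+, CD45low and CD206- cells from perfused brains of wild-type adult C57BL/6 mice. The 3 Meth mice had received 5 mg/kg methamphetamine 4 times, 2 h apart, and the 3 Saline mice had received saline 4 times on the same schedule. RNA was read with an amplicon panel on an Ion Torrent sequencer, in which each gene is represented by its own primer pair. The authors' deposited table gives 1 log2 average for each group, together with a signed fold (Meth over Saline), an unadjusted p and a p adjusted for the false discovery rate (FDR) of each gene. Values of single mice are not in it, so no standard deviation, depth or overlap between mice can be given below. Averages are on this log2 scale throughout, with Meth given before Saline unless stated.

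All 11 microglial markers examined, among them Itgam, Ptprc, Cx3cr1 and Tmem119, had a log2 average of at least 7.52 in the higher group of the authors' deposited table. Their summed level, back-transformed, was 2.81% of the total in Meth and 4.69% in Saline. Of 41 markers of 8 other cell types, 37 were listed and 19 of these lay under 1 in both groups. Their summed level was 0.0231% in Meth and 0.0368% in Saline, with the astrocyte transporter Slc1a3 the highest (5.21 against 7.02) and Cd3e, Cd3g and Lyve1 listed at 0 in both groups of the authors' deposited table. Mrc1, the gene for CD206, which the sort was to exclude, averaged 4.80 with Meth and 4.44 with Saline in the authors' deposited table. Both sums were lower in Meth, but the other cell types did not share a direction. Summed neuron markers (0.000527% in Meth against 0.000435% in Saline) and border-associated macrophage markers (0.00277% against 0.00209%) were higher in Meth. The sums of all remaining types were lower. Single markers also differed both ways in the authors' deposited table. Cnp (5.04 against 6.37) and Cdh5 (1.31 against 3.11) were lower in Meth, Mbp (4.64 against 3.59) and Gad1 (1.56 against 0.21) higher. The part of these markers in the differences below was not tested. In sorted bulk RNA, fewer cells of a type and less RNA per cell cannot be told apart.

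The study's contrast, Meth against Saline, addresses how methamphetamine alters microglial transcripts. At a deposited FDR under 0.05, 1 of the 34 members was called, Nipsnap1, which was higher in Meth. Over all 23930 genes 2.24% were called (2.15% higher and 0.0878% lower), and over the 10375 genes with an average of at least 1 in either group 0.357% were. An unadjusted p under 0.05 was listed for 5 members, 3 with a higher Meth average (Nipsnap1, Timm13 and Mfn2) and 2 with a lower one (Timm21 and Mff). That is 15.6% of the 32 members with an average of at least 1, against 14.7% of all genes at that level (6.46% higher and 8.19% lower) and 10.1% of the whole table, so the members reached this threshold about as often as other genes.

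The Meth average was higher than the Saline average for 22 of the 32 members (68.8%) and lower for 10, while 50.7% of all genes at that level were higher and 48.8% lower. The median log2 difference (Meth minus Saline) was 0.425 over the members and 0.02 over all genes at that level. The mean over the members was only 0.15, because more of the large differences lay on the other side: 5 members were lower in Meth by at least 2-fold (Timm21, Tomm22, Tfam, Timm50 and Tomm70a) and 2 were higher by that much (Polg and Timm8b). In all, 7 of 32 members were at least 2-fold apart, against 17.4% of all genes at that level (6.69% higher and 10.7% lower). These counts describe group averages and are no test of the members as a set.

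**Figure D1:**
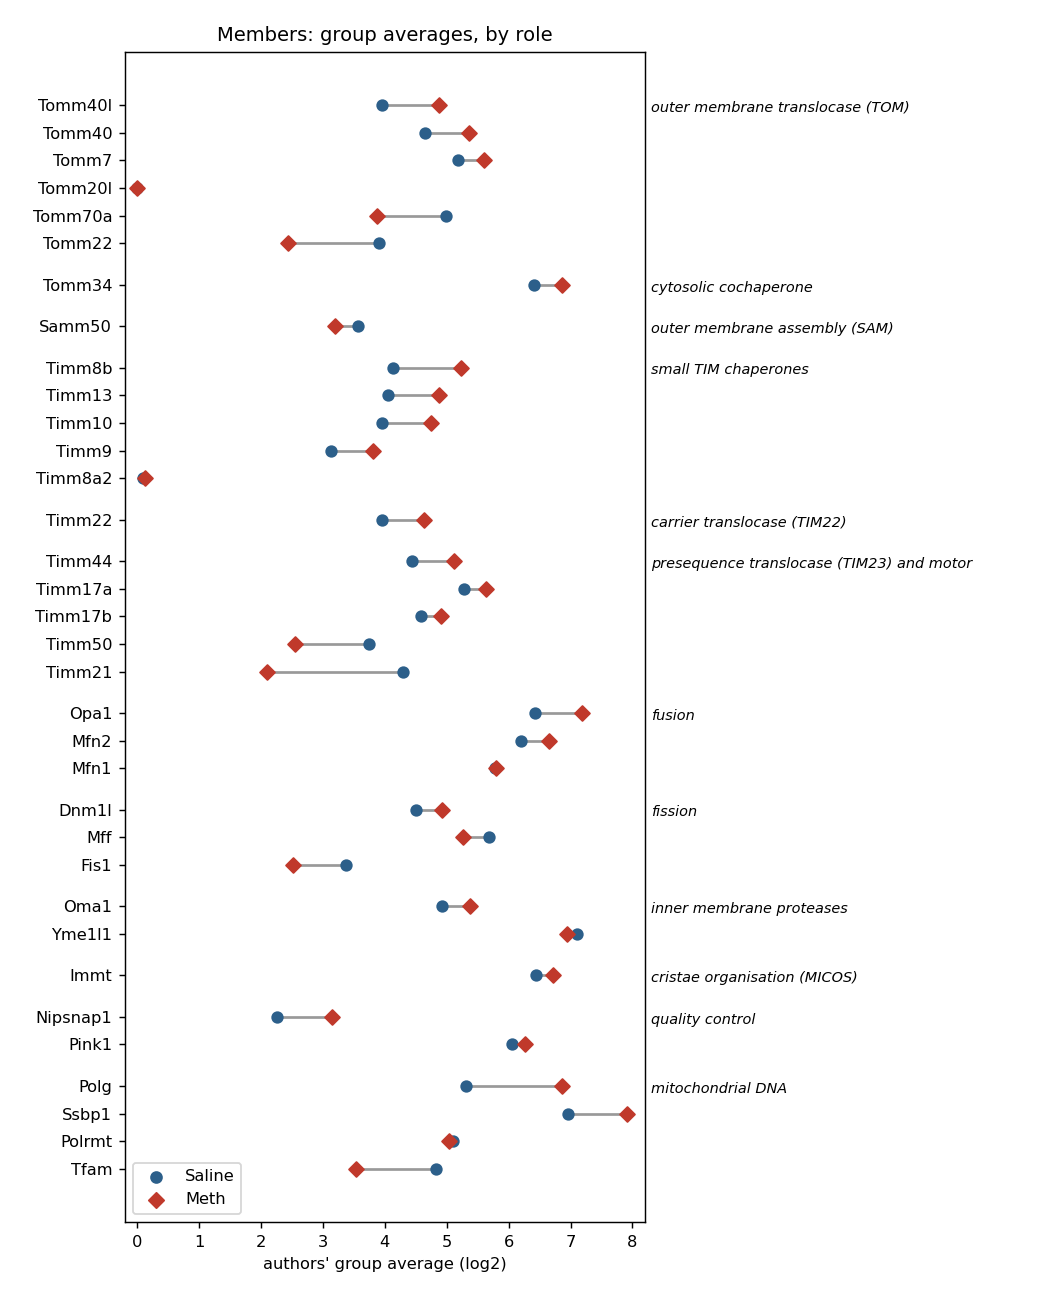
Group averages (x axis, log2) of the 34 members, from the authors' deposited table, by role. Blue circles are Saline and red diamonds Meth, each 1 average with no spread; a red diamond covers the blue circle where the averages are nearly equal. Tomm22, Tomm70a, Timm50, Timm21 and Tfam have the Meth average on the left by at least 1, while all 4 small TIM chaperones above 1 have it on the right.

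The TOM complex is the entry gate of the outer membrane. Of its 5 members above 1, 3 had higher and 2 had lower averages with Meth, and none reached an unadjusted p of 0.05 in the authors' deposited table. The pore-forming subunit Tomm40 averaged 5.36 (log2) with Meth and 4.65 with Saline in the authors' deposited table (1.63-fold higher, p = 0.1218, adjusted p = 0.6258). Its paralogue Tomm40l averaged 4.88 against 3.96 in the authors' deposited table (p = 0.1140). Tomm7, a small subunit that helps to hold PINK1 at the complex, averaged 5.61 against 5.18 (p = 0.4314) in the authors' deposited table. Tomm22 and Tomm70a, both receptor subunits, had lower averages in Meth. For Tomm22, the central receptor that also organises the complex, the authors' deposited table gave 2.43 with Meth and 3.91 with Saline (2.80-fold lower, p = 0.3461). For Tomm70a, which receives carrier precursors from cytosolic chaperones, the authors' deposited table gave 3.87 and 4.99 (2.18-fold lower, p = 0.0650).

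Tomm34, a cytosolic cochaperone of Hsp70 and Hsp90 despite its symbol, averaged 6.86 with Meth and 6.41 with Saline in the authors' deposited table (p = 0.3361). Samm50, the core of the machinery that inserts barrel proteins into the outer membrane, averaged 3.19 against 3.57 (p = 0.1464) in the authors' deposited table. Tomm20l, a relative of TOM20, was listed at 0 in both groups of the authors' deposited table.

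The small TIM proteins are chaperones that carry hydrophobic precursors across the intermembrane space, TIM9 with TIM10 and TIM8 with TIM13. Of the 5 members in this group, the 4 above 1 all had higher averages in Meth, by 0.68 to 1.10 on the log2 scale, and 1 of them had an unadjusted p under 0.05. That gene was Timm13, at 4.87 with Meth and 4.05 with Saline in the authors' deposited table (1.76-fold higher, p = 0.0034, adjusted p = 0.1240). Its partner Timm8b averaged 5.23 against 4.13 in the authors' deposited table (2.14-fold higher, p = 0.0926). The other pair, Timm9 (3.81 against 3.13, p = 0.2430) and Timm10 (4.74 against 3.96, p = 0.1730), differed by similar amounts with larger p-values in the authors' deposited table. The paralogue Timm8a2 was near 0 in both groups (0.12 against 0.09) in the authors' deposited table. No member of this group passed the adjusted threshold.

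Carrier proteins reach the inner membrane through TIM22. Timm22, the channel subunit, averaged 4.63 with Meth and 3.96 with Saline in the authors' deposited table (1.59-fold higher, p = 0.4021).

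Members of the presequence route differed by -2.20 to 0.67 on the log2 scale, 2 of them lower with Meth and 3 higher. The 2 lower ones encode proteins that receive precursors or connect the inner to the outer translocase. Timm21, which links TIM23 to TOM and to respiratory chain assembly, averaged 2.09 (log2) with Meth and 4.29 with Saline in the authors' deposited table (4.62-fold lower, p = 0.0410, adjusted p = 0.4613). This was the largest difference among the 32 members above 1. Timm50, the receptor of TIM23, averaged 2.55 against 3.75 in the authors' deposited table (2.29-fold lower, p = 0.0770, adjusted p = 0.5504). The channel-associated paralogues Timm17a (5.64 against 5.28, p = 0.2538) and Timm17b (4.90 against 4.58, p = 0.2071) had slightly higher Meth averages in the authors' deposited table. So did Timm44, which tethers the mitochondrial Hsp70 motor to the channel, at 5.11 against 4.44 in the authors' deposited table (p = 0.0674). Within 1 complex, then, the averages of subunit genes differed in opposite directions, and none of these genes passed the adjusted threshold.

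Fusion genes had equal or higher averages in Meth, although Mfn1, 0.01 higher on the log2 scale, was 0.01 lower (-0.01) once the median of all genes above 1 was subtracted. Mfn2, a mitofusin that joins outer membranes and also tethers mitochondria to the endoplasmic reticulum, averaged 6.65 (log2) with Meth and 6.20 with Saline in the authors' deposited table (1.37-fold higher, p = 0.0400, adjusted p = 0.4587). Its paralogue Mfn1 averaged 5.79 against 5.78 in the authors' deposited table (1.00-fold, p = 0.8719, adjusted p = 1.0000). Opa1, the inner membrane fusion GTPase, averaged 7.18 against 6.43 in the authors' deposited table (1.68-fold higher, p = 0.1151, adjusted p = 0.6247). The difference of Mfn2 from Mfn1 was not tested.

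Fission genes did not share a direction. Dnm1l, which encodes the dividing GTPase DRP1, averaged 4.93 with Meth and 4.51 with Saline in the authors' deposited table (1.34-fold higher, p = 0.1588, adjusted p = 0.6712). Its main outer membrane receptor Mff had the opposite sign, with 5.26 against 5.68 in the authors' deposited table (1.34-fold lower, p = 0.0273, adjusted p = 0.3933). Fis1, a further outer membrane fission protein, averaged 2.52 against 3.37 in the authors' deposited table (1.80-fold lower, p = 0.1588, adjusted p = 0.6712). The enzyme and its receptors therefore lay on opposite sides of 0, and none of the 3 passed the adjusted threshold.

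Inner membrane proteases cut OPA1 into forms whose balance is known to set the level of fusion. The stress-activated protease Oma1 averaged 5.37 with Meth and 4.93 with Saline (p = 0.4347), and the constitutive protease Yme1l1 averaged 6.95 against 7.10 (p = 0.3981), in the authors' deposited table. Immt, which encodes the MICOS scaffold mitofilin at cristae junctions, averaged 6.71 against 6.45 (p = 0.1783) in the authors' deposited table. These genes were all within 1.36-fold of equality.

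Of the quality control genes, Nipsnap1 was the called member. It encodes a mitochondrial protein that can gather on damaged mitochondria and recruit autophagy receptors, and it rose from a log2 average of 2.26 in Saline to 3.15 in Meth in the authors' deposited table (1.86-fold, p = 0.0009, adjusted p = 0.0398). The call depended on the genes near 0: after a Benjamini-Hochberg adjustment made here over only the 10375 genes with an average of at least 1, its p was 0.2594, and no gene of the table was called in that way (0, while 1520 of the 10375 had an unadjusted p under 0.05). Nipsnap1 had the lowest Saline average of the 32 members, and it was named individually in the rule with its result already known, so its call supports nothing about the others. Pink1, the kinase that marks depolarised mitochondria for removal, averaged 6.27 against 6.05 in the authors' deposited table (1.17-fold higher, p = 0.4262, adjusted p = 1.0000), a difference that turned to -0.045 on the log2 scale with the GC trend described below removed.

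**Figure D2:**
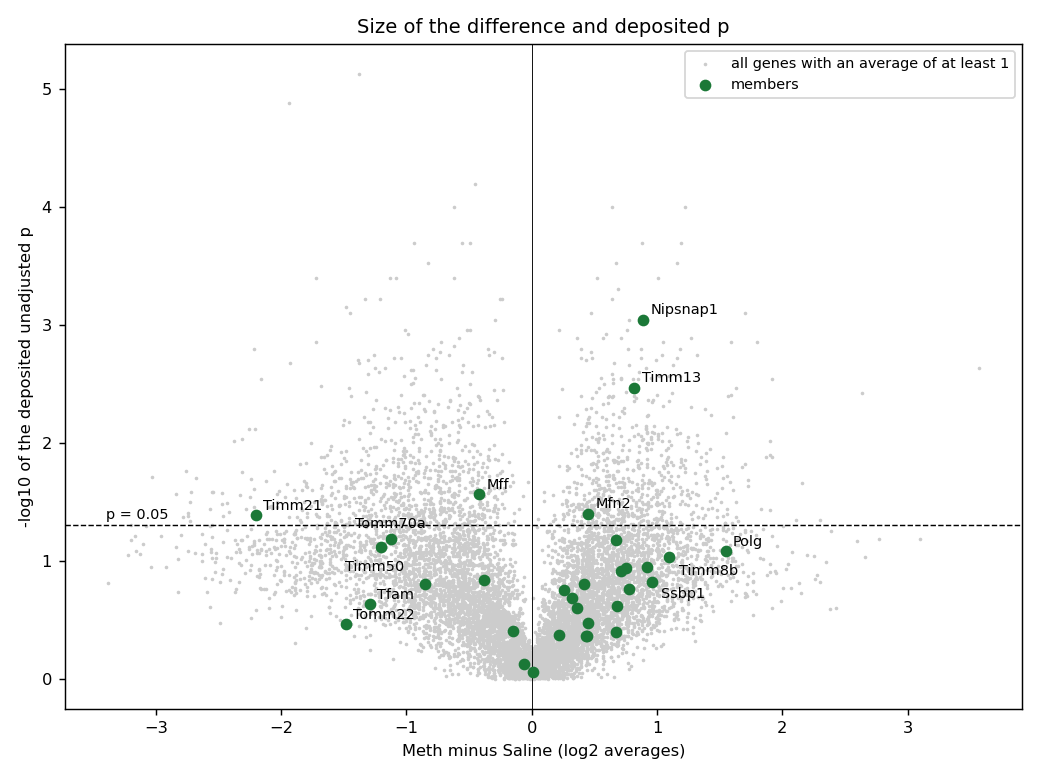
Log2 difference of the group averages (x axis, Meth minus Saline) and −log10 of the deposited unadjusted p (y axis). Grey points are all 10375 genes with an average of at least 1 in either group and green points the 32 members among them. The members above the dashed line, which marks an unadjusted p of 0.05, are Nipsnap1, Timm13, Mff, Timm21 and Mfn2, while Tomm22, Tfam and Polg lie below it despite differences of more than 2-fold.

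Genes of mitochondrial DNA had large differences in opposite directions and no unadjusted p under 0.05. Polg, the catalytic subunit of the mitochondrial DNA polymerase, averaged 6.86 (log2) with Meth and 5.31 with Saline in the authors' deposited table (2.94-fold higher, p = 0.0833, adjusted p = 0.5623). Ssbp1, the single-stranded DNA-binding protein that acts beside it at the replication fork, averaged 7.92 against 6.96 in the authors' deposited table (1.95-fold higher, p = 0.1519). Tfam, which packs mitochondrial DNA into nucleoids and starts its transcription, averaged 3.53 against 4.82 in the authors' deposited table (2.44-fold lower, p = 0.2328, adjusted p = 0.7885). Polrmt, the mitochondrial RNA polymerase, was nearly level at 5.04 against 5.10 in the authors' deposited table (1.04-fold lower, p = 0.7574, adjusted p = 1.0000). Polg and Ssbp1 thus had higher Meth averages and Tfam a lower one, at p-values that do not separate any of them from 0.

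Larger differences tended to go with smaller p-values among the 32 members above 1 (Spearman's rank correlation of absolute difference and p -0.54, across genes of the same libraries), with exceptions. Of the 7 members at least 2-fold apart, 1 (Timm21) had an unadjusted p under 0.05, whereas 2 of the 14 members under 1.5-fold did (Mff and Mfn2). Over all genes with an average of at least 1, 31.5% of those at least 2-fold apart and 6.37% of those under 1.5-fold apart reached that p. Values per mouse, which would show how many animals carry the large differences of Tomm22, Tfam or Polg, are not in the table.

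Promoter sequences give the context in which nuclear factors are known to act on such genes. NRF1 (nuclear respiratory factor 1) and GABP, an ETS family factor, are known regulators of genes for mitochondrial proteins. RefSeq promoter windows (build GRCm38.p6, 250 bases before to 50 after the start) matched 31 of the 34 members by symbol. The NRF1 core (GCGC, then A and any base, then GCGC), on either strand, was found in windows of 6 members (Immt, Oma1, Opa1, Pink1, Polrmt and Timm8b), or 19.4% of the 31, against 5.19% of all 27025 genes with a window. The ETS core CCGGAAGT, on either strand, was found in those of 7 members (Fis1, Mfn1, Polg, Tfam, Timm10, Timm8a2 and Tomm70a), or 22.6%, against 4.31% of all genes. Both background shares include genes with averages under 1 or absent from the table. The share over genes with an average of at least 1 was not computed, so neither excess can be called particular to the members. No member held both motifs, so they could not overlap. Shown here are stretches of 60 bases, all before the start, from the members that differed by at least 1.5-fold and held a motif there, with the motif in capitals, 5′ to 3′ on the gene's strand.
Tfam: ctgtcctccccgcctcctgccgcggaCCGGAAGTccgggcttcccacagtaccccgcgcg
Polg: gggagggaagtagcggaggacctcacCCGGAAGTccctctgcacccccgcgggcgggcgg
Tomm70a: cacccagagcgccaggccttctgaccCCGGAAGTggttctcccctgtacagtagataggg
Fis1: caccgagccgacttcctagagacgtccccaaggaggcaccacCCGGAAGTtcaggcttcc
Opa1: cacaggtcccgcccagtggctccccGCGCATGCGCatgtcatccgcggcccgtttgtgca
The stretches lie at chr10:71238058-71238117 (minus strand, Tfam), chr7:79466278-79466337 (minus, Polg), chr16:57121608-57121667 (plus, Tomm70a), chr5:136953215-136953274 (plus, Fis1) and chr16:29579250-29579309 (plus, Opa1). Of the 4 genes with the ETS letters in a stretch shown, Tfam, Tomm70a and Fis1 had lower Meth averages and Polg a higher one. Of the other members with these letters, Timm10 had a higher Meth average (1.71-fold), while Mfn1 and Timm8a2 were nearly level (1.00-fold and 1.02-fold). The same letters thus stood in windows of genes that differed in opposite directions. A match of letters shows no binding. For the factors themselves, the authors' deposited table listed Nrf1 at 6.24 in Meth and 6.02 in Saline (p = 0.9680) and Gabpa, the DNA-binding GABP subunit, at 3.89 against 5.17 (2.44-fold lower, p = 0.1005).

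Further genes of the same pathways were taken by function, in 13 lists of 113 genes, chosen with earlier results of these data known. The table held 101 of them, and 91 had an average of at least 1. Of these 91, 57 were higher with Meth and 34 lower, with a median difference of 0.22. An unadjusted p under 0.05 was listed for 12 with a higher Meth average and 3 with a lower one, or 13.2% and 3.30%, beside the 6.46% and 8.19% of all genes given above. None of these 15 had an adjusted p under 0.05. The single called gene of the lists was Mterf1a, a mitochondrial transcription termination factor near 0 (0.13 in Meth and -0.07 in Saline, adjusted p = 0.0001) in the authors' deposited table.

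Among import partners, the motor and matrix chaperone list had 6 of 7 members higher in Meth. Dnajc19, a cofactor of the import motor, averaged 6.87 against 5.39 in the authors' deposited table (2.78-fold higher, p = 0.0375). The peptidase list, whose products trim imported precursors, reached an unadjusted p of 0.05 for 4 of 8 members in the authors' deposited table. That was 50.0%, against 14.7% of all genes with an average of at least 1. It was the largest share of any of these small lists, singled out by its value, and was not tested. None of the 4 had an adjusted p under 0.05. Higher with Meth were Pmpca, a subunit of the main processing peptidase (6.70 against 6.11, p = 0.0249), and the inner membrane peptidase subunits Immp1l (3.68 against 3.07, p = 0.0347) and Immp2l (1.56 against 0.68, p = 0.0208) in the authors' deposited table. Lower was the intermediate peptidase Mipep (3.33 against 4.06, p = 0.0361) in the authors' deposited table. No gene of the lists of oxidative import and insertion, outer membrane sorting or MICOS reached an unadjusted p of 0.05 in the authors' deposited table.

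Partners in dynamics and turnover differed in both directions. Mtfp1, an inner membrane protein of fission, averaged 4.66 with Meth and 3.18 with Saline in the authors' deposited table (2.79-fold higher, p = 0.0164). Mief2, an adaptor that recruits DRP1, averaged 3.15 against 4.39 in the authors' deposited table (2.36-fold lower, p = 0.0179), on the same side as the receptor Mff. Stoml2, which binds prohibitins and cardiolipin, was at 6.55 against 6.00 (p = 0.0485), and Phb2, a prohibitin, at 6.72 against 5.83 (p = 0.0093), in the authors' deposited table. The matrix protease Lonp1 averaged 6.33 against 5.80 (p = 0.0143) in the authors' deposited table. Of the mitophagy list, the receptor Fundc1 averaged 4.61 against 6.92 (4.95-fold lower, p = 0.0176) and the phosphatase Pgam5 at 6.41 against 5.93 (p = 0.0089) in the authors' deposited table.

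For mitochondrial DNA, biogenesis and content, each list had a single gene above 1 with an unadjusted p under 0.05. These were the mitochondrial topoisomerase Top1mt (4.73 against 3.80, p = 0.0326), the coactivator Pprc1 (5.29 against 4.83, p = 0.0068) and citrate synthase, Cs (6.74 against 5.82, p = 0.0152), all with higher Meth averages in the authors' deposited table. The transport list, whose products link mitochondria to motor proteins, had 3 of 4 genes lower and none with an unadjusted p under 0.05.

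**Figure D3:**
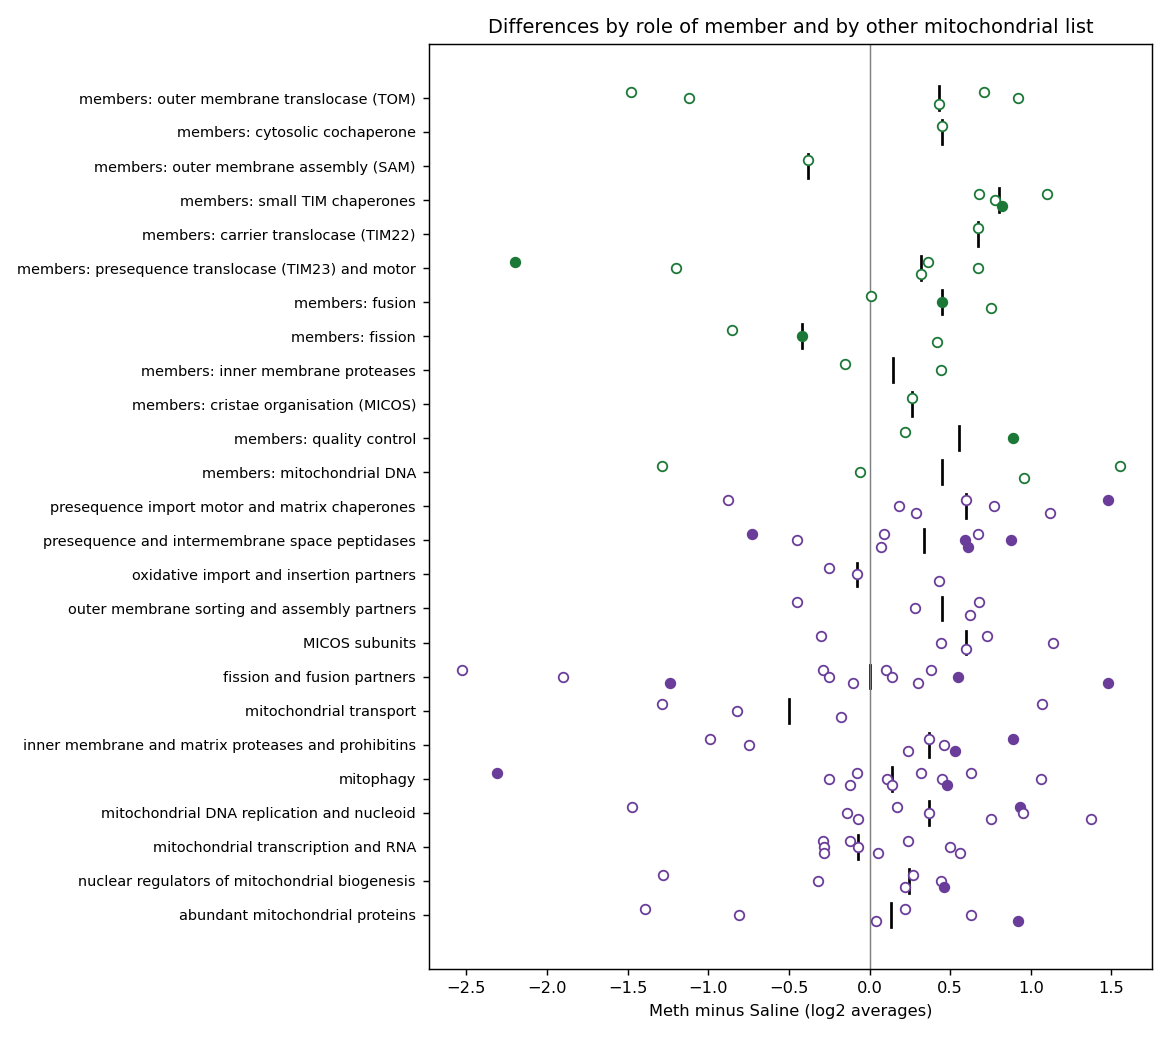
Log2 differences (x axis, Meth minus Saline) of genes with an average of at least 1, by role of the members (green) and by list of other mitochondrial genes (purple). Filled points have a deposited unadjusted p under 0.05 and black bars are medians. Small TIM chaperones all lie right of 0 (0.68 to 1.10), while TOM, TIM23 and mitochondrial DNA members lie on both sides.

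Differences in the table moved with the base composition of the longest transcript of each gene. The base composition of the amplicons that were read was not measured. Across the 9965 genes with an average of at least 1 and a matched GENCODE M21 transcript, the log2 difference was larger at higher GC content (Spearman's rank correlation 0.21, across genes of the same libraries), and across the 32 members it was 0.19. Members with a higher Meth average had a median transcript GC content of 50.1%, those with a lower one 45.4%, and the members as a whole 49.8% against 49.6% for all genes. With the median of each of 20 GC bins subtracted, 22 members lay above 0 and 10 below, with a median of 0.435, but Pink1 (from 0.22 to -0.045) and Yme1l1 (from -0.15 to 0.11) changed sign, and Mff moved from -0.42 to -0.16.

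**Figure D4:**
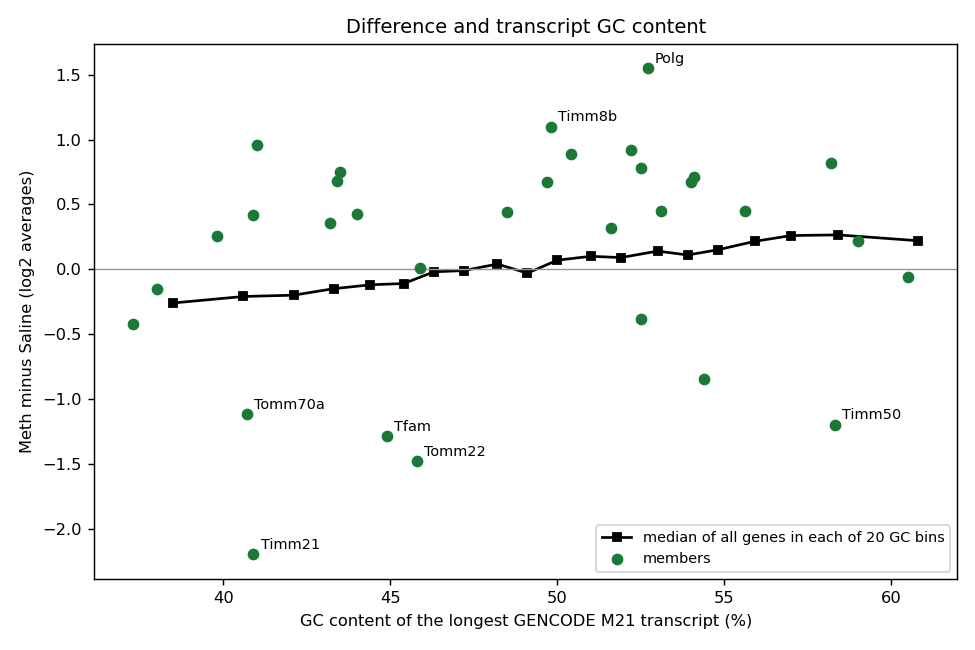
Log2 difference (y axis, Meth minus Saline) against the GC content of the longest transcript (x axis, percent). Green points are the 32 members and black squares the median of all genes in each of 20 GC bins, which runs from -0.26 in the lowest bin to 0.22 in the highest. The members lie on both sides of this line; the 7 labelled ones differ by at least 1.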

How the data were processed

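Per the labels' protocols, total RNA of sorted microglia from 3 Saline and 3 Meth mice was turned into libraries with the AmpliSeq mouse transcriptome panel and read on an Ion S5XL. Per the file headers, the deposited values are 1 log2 average per group from the authors, a signed linear fold (a ratio of Meth over Saline, negative where Saline is higher), a p-value and an FDR adjusted p-value. The statistical model, aligner, build, counting and normalization were not given in the sources used here. The back-transformed averages (2 to the power of the average, minus 1) summed to 981392 in Meth and 1012049 in Saline, so the scale was read as log2 of RPM (reads scaled to a fixed total) plus 1; that reading comes from the values. Averages below 0 occurred for 1425 genes in Saline and 14 in Meth, none of them members, so the averages are not plain means of such values. No column (0) holds values of a single sample, so depth is unknown and the likeness of replicates could not be examined. Reads shared between paralogues could not be assessed.

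Members and lists were chosen with earlier results of these data known. Genes were called at a deposited FDR under 0.05. Differences are Meth minus Saline log2 averages, and they understate the change of low genes. Full values were given for members with p under 0.05 and for a list of core members, and list genes were named at p under 0.05. Benjamini-Hochberg adjustment and GC binning were tested on simulated data. Tools were Python 3.11.15, numpy 2.4.6, pandas 2.3.3, scipy 1.17.1 and matplotlib 3.10.9. Promoter windows and their coordinates are from RefSeq (GRCm38.p6); GENCODE M21 gave GC content.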

Additional observations from a re-analysis of the deposited data

How the results depend on the processing

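With the Benjamini-Hochberg adjustment restricted to genes with an average of at least 1, or of at least 3, the authors' deposited p-values gave 0 called members in place of 1, and 0 called genes of the table in place of 536; at an unadjusted p under 0.05 there were 5 members and 2426 genes, and no other tool could be run on averages. The adjusted p of Nipsnap1 was then 0.2594 over genes of at least 1, as fewer genes near 0 with small p-values were included. An unadjusted p under 0.01 left 2 members in place of 5 and 4 list genes in place of 16. The median difference of the members, 0.425, was 0.15 as a mean. It lay between 0.38 and 0.44 with pseudocounts of 5 or 0.1, with all 34 members, after centring on all genes or with the GC trend removed. Of 128 recomputed differences of single members (pseudocounts, centring and GC trend), 125 kept their sign; Mfn1 went from 0.01 to -0.01 when centred, and with the GC trend removed Pink1 went from 0.22 to -0.045 and Yme1l1 from -0.15 to 0.11. The alternatives for all genes, for the lists and for the GC trend of single members were chosen after seeing the data. Leaving out single mice was not run, since the table holds group averages. No paired analysis was possible because the table holds no values per mouse.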

Other observations

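Outside the genes named by rule, several mitochondrial list genes had large differences that missed an unadjusted p of 0.05; they were picked here after their values were seen. The authors' deposited table listed Slc25a46, an outer membrane protein tied to fusion and fission, at 3.93 in Meth and 6.46 in Saline (5.79-fold lower, p = 0.1247). Mul1, an outer membrane ubiquitin ligase, averaged 5.04 against 6.94 in the authors' deposited table (3.73-fold lower, p = 0.0785). The outer membrane channel Vdac1 averaged 4.92 against 6.31 (p = 0.1830), and Vdac2 averaged 5.16 against 5.97 (p = 0.1139), in the authors' deposited table, while the inner membrane carriers Slc25a3 (8.06 against 7.84, p = 0.3345) and Slc25a4 (7.51 against 6.88, p = 0.1694) had higher Meth averages. Of nucleoid genes, Atad3a averaged 6.54 against 5.17 (p = 0.0713) and the exonuclease Mgme1 averaged 2.08 against 3.55 (p = 0.0595) in the authors' deposited table.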
